A study of Mus musculus with 13 samples.

Results

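The 9 genes described here encode enzymes of the tricarboxylic acid (TCA) cycle: citrate synthase (Cs), the subunits of NAD-linked isocitrate dehydrogenase (Idh3a, Idh3b and Idh3g), the E1 subunit of 2-oxoglutarate dehydrogenase (Ogdh), subunits of succinyl-CoA ligase (Suclg1 and Sucla2), fumarate hydratase (Fh1) and mitochondrial malate dehydrogenase (Mdh2). They were chosen by symbol, with earlier results of these data known. All 9 were found among the 33618 gene rows of the count table, and all 9 were among the 16753 genes that passed the filter on low counts. Each was lower in parametrial white adipose tissue (pmWAT) of mice with an inducible adipocyte deletion of Lmna than in pmWAT of floxed controls. None was higher, and of all genes tested 16.3% were lower at an adjusted p under 0.05. Single mice of the genotypes overlapped for all 9 genes, and fewer or none of the 9 were called in some fits given below.

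The study asked what loss of lamin A/C, the nuclear lamina proteins made from Lmna, does to adipocytes. Bulk RNA-Seq was performed on whole pmWAT of 13 female mice, with 1 library per mouse. The 7 controls were Lmna fl/fl, with loxP sites on either side of exons 10 and 11 of Lmna, and the 6 Lmna iADKO mice carried the same floxed alleles together with Adipoq-CreERT2+/-, a tamoxifen-activated Cre driven by the adiponectin promoter. Mice of both genotypes received tamoxifen at 50 mg/kg intraperitoneally on 5 consecutive days at 12 to 14 weeks of age, and tissue was taken 2 weeks posttamoxifen. The controls therefore had the drug and the floxed alleles but no Cre, so an effect of Cre itself cannot be told apart from that of the deletion. Cre is expected only in adipocytes, and other cells of the fat pad keep Lmna.

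The TCA cycle runs in the mitochondrial matrix. Acetyl-CoA from pyruvate or fatty acids joins oxaloacetate to form citrate, which is oxidized back to oxaloacetate while NADH, FADH2 and GTP or ATP are made. In white adipocytes the cycle also supplies citrate for export to the cytosol, where it is split to give acetyl-CoA for fatty acid synthesis, and it is refilled by pyruvate carboxylase. Several steps are run by complexes of different subunits, so a gene stands for a subunit and not always for a whole enzyme.

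The genes lie on 9 different chromosomes. On GRCm39, Cs is on chromosome 10 (128172837 to 128198363, plus strand), Idh3a on chromosome 9 (54493575 to 54514730, plus), Idh3b on chromosome 2 (130121227 to 130126467, minus), Idh3g on chromosome X (72820644 to 72830719, minus) and Ogdh on chromosome 11 (6241551 to 6309233, plus). Suclg1 is on chromosome 6 (73225365 to 73253894, plus), Sucla2 on chromosome 14 (73762759 to 73834335, plus), Fh1 on chromosome 1 (175425290 to 175453205, minus) and Mdh2 on chromosome 5 (135807292 to 135820882, plus). Because the genes are unlinked and fell together, the 250 bases before each canonical start site were searched on both strands for 7 short motifs. The motif bound by ETS factors such as GABPA, CCGGAAG, was found before 2 of the 9 genes (Idh3a and Mdh2) and before 9.26% of 14122 promoters of protein-coding genes tested. The CCAAT box was found before 5 of 9 (Cs, Idh3a, Idh3g, Ogdh and Fh1) and 35.51% of all. The GC box GGGCGG was found before 3 of 9 (Cs, Fh1 and Mdh2) and 47.52% of all. The element of the estrogen-related receptors, TCAAGGTCA, its nested half-site AAGGTCA, the NRF1 core CGCATGCG and the YY1 motif AAGATGG were found before 0 of 9, against 0.32%, 3.21%, 2.03% and 4.14% of all promoters. The sequences before Idh3a and Ogdh are shown because these 2 genes had the largest fold changes of the 9. Idh3a is chr9:54493362-54493574 and Ogdh is chr11:6241301-6241550, both on the plus strand of GRCm39, with the ETS motif (reverse strand) of Idh3a and the 2 CCAAT boxes (the upstream one on the reverse strand) of Ogdh in capitals.
Idh3a: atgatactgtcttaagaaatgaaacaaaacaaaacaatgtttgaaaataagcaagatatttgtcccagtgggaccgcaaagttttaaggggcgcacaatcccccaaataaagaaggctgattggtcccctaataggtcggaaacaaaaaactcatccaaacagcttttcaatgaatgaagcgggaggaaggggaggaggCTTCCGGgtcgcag
Ogdh: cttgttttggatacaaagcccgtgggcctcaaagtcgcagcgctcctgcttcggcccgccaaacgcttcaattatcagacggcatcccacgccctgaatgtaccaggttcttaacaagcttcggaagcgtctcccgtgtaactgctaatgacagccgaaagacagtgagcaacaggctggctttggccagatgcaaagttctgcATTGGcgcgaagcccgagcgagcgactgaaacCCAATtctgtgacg
These matches describe letters in a window. No 1 motif was shared by all 9 genes.

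Each mouse had between 18854223 and 19776491 reads counted on genes, and the 9 genes had between 924 and 14687 counts per mouse, so the spread between mice and not counting error sets their precision. Values are CPM, a gene's share of the counted reads of a library, scaled by TMM, a normalization that sets most genes level between libraries. Its factors were 0.892 to 1.02 in fl/fl and 1.05 to 1.10 in iADKO. Every iADKO factor was thus above every fl/fl factor, and this scaling lowers CPM in iADKO relative to fl/fl. Fold changes without any such scaling were not computed. Lmna itself was 84.7 ± 7.51 CPM (SD, n = 7) among fl/fl mice, against 96.7 ± 11.5 CPM (SD, n = 6) among iADKO mice, and the change of 0.19 on the log2 scale (SE 0.079) had an edgeR adjusted p of 0.0785. A count over the whole gene, in a tissue whose other cells keep the allele, does not check the deletion, and genotypes are those of the labels throughout.

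By edgeR's quasi-likelihood test, 2737 of 16753 genes tested were lower in iADKO at an adjusted p under 0.05, which is 16.3%, and 2367 were higher, which is 14.1%. Among the 9 TCA genes, 9 were lower and 0 were higher. The count of 0 higher was the same at an unadjusted p under 0.05 and with DESeq2 or limma. The median log2 fold change of the 9 genes was -0.52, against 0.03 for all genes tested, and single values ran from -0.68 to -0.45. The calls were lost for some or all of the 9 in fits with marker levels or the animal-number series as a term, which are given after the marker genes. In a whole tissue, fewer adipocytes and less RNA of these genes per adipocyte cannot be told apart.

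**Figure D1:**
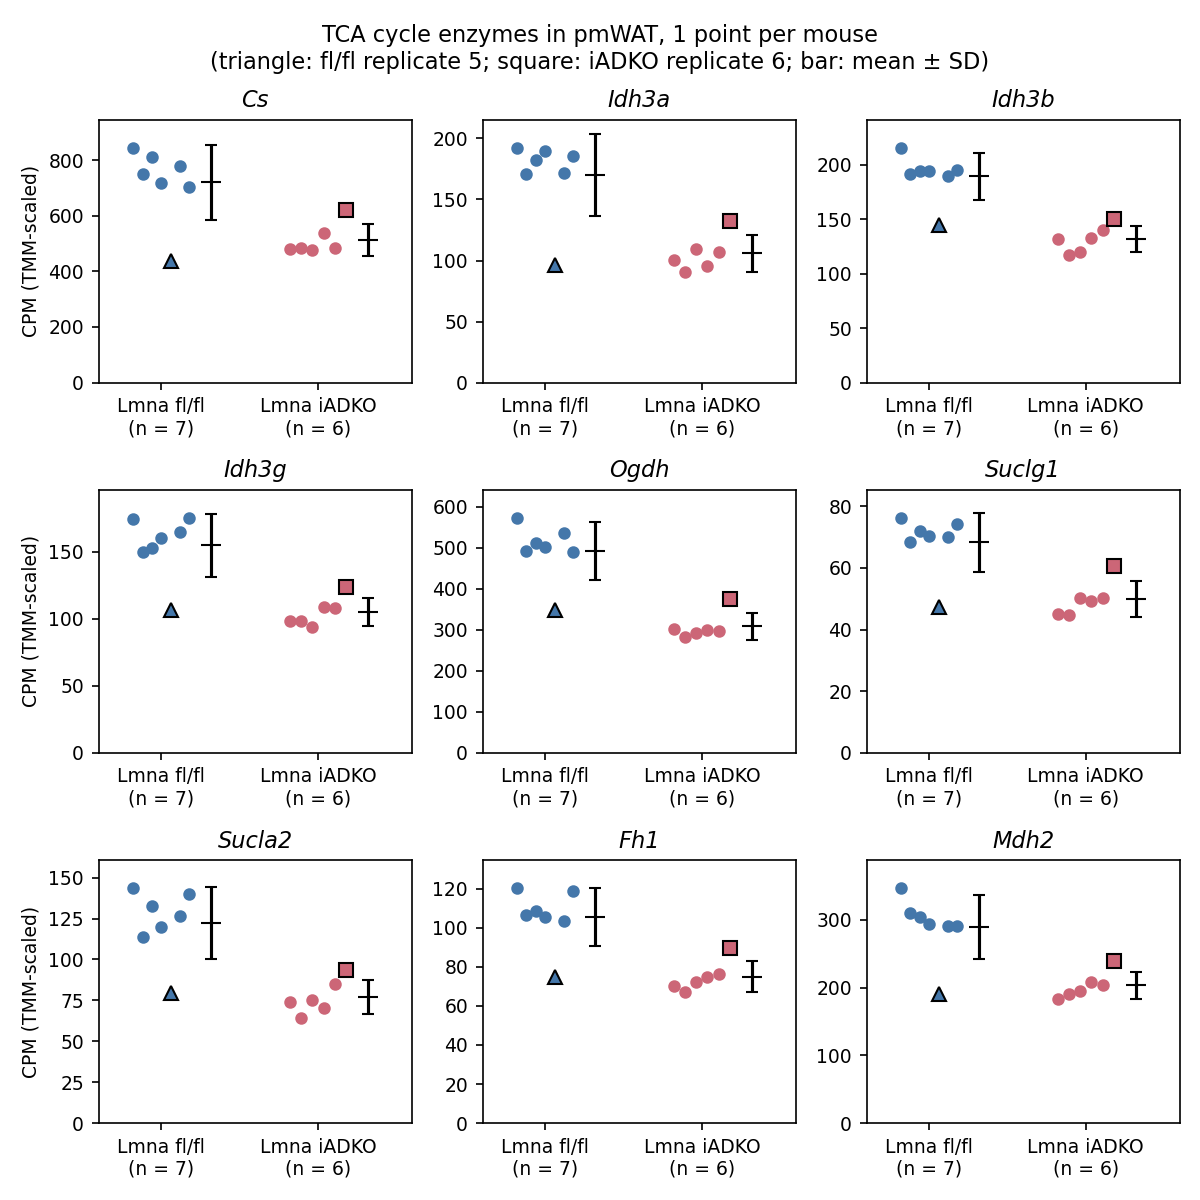
TMM-scaled CPM (vertical axes, from 0) of the 9 genes in each of 7 Lmna fl/fl and 6 Lmna iADKO mice, with the mean and SD of each genotype as a bar. In every panel, 6 of the fl/fl mice lie above all iADKO mice, while fl/fl replicate 5 (triangle) lies among or below them and iADKO replicate 6 (square) is the highest of its genotype.

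Citrate synthase opens the cycle by joining acetyl-CoA to oxaloacetate. Cs measured 844, 749.8, 813, 717, 437, 780.2 and 703 CPM in fl/fl replicates 1 to 7, and 479, 483, 477, 538, 484 and 620.3 CPM in iADKO replicates 1 to 6. The fifth fl/fl mouse was below every iADKO mouse, and the other 6 were above every iADKO mouse. Its mean was 721 ± 135 CPM (SD, n = 7) for fl/fl against 513 ± 57.2 CPM (SD, n = 6) for iADKO. Cs fell by 0.49 on the log2 scale in iADKO (SE 0.129, edgeR adjusted p = 0.0117), and was 1.40-fold higher in fl/fl than in iADKO. By an exact two-sided permutation test of Cs alone over all assignments of 7 and 6 mice, p was 0.0111, where the smallest p the test allows is 0.000583. A near copy, Csl, lies on chromosome 10 (99592282 to 99595165) and matches 2839 of the 2952 bases of the Cs transcript at 88.2% identity, but it had 19 counts in the 13 mice together against 155677 for Cs.

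Isocitrate dehydrogenase 3 is built from a catalytic alpha subunit (Idh3a) and the beta and gamma subunits (Idh3b and Idh3g) and makes the first NADH of the cycle. Idh3a measured 192, 171, 183, 189.8, 96.7, 171 and 186 CPM in fl/fl replicates 1 to 7 and 100.3, 90.4, 109, 95.1, 107 and 133 CPM in iADKO replicates 1 to 6. Only the fifth fl/fl mouse lay within the iADKO range, and the other 6 were above it. Idh3a fell by 0.68 (SE 0.141, adjusted p = 0.00334), from 170 ± 33.4 CPM (SD, n = 7) to 106 ± 14.9 CPM (SD, n = 6). Idh3b measured 216, 192, 194, 194, 145, 189.8 and 195 CPM in fl/fl and 132, 117, 120.1, 132, 139.8 and 149.7 CPM in iADKO, and fell by 0.52 (SE 0.083, adjusted p = 7.51e-04). Idh3g measured 175, 149.8, 153, 160.5, 107, 164 and 175 CPM in fl/fl and 98.6, 98.1, 93.9, 109, 108 and 123 CPM in iADKO, and fell by 0.56 (SE 0.103, adjusted p = 0.00171). All 3 subunits thus had 6 fl/fl mice above every iADKO mouse. Idh3a shares 1875 exon bases with Acsbg1 on the opposite strand, and Idh3g shares 1437 with Srpk3 and 301 with Ssr4. Whether the counting used strand is not given in the sources used here. Idh3b shares 487 exon bases with the lncRNA Gm74723 and Ogdh 500 with the lncRNA Gm72270, both on the opposite strand and without a row in the count table. Further opposite-strand overlaps were found for Cs (1098 bases with Gm56959, at 1.99 CPM in fl/fl, and 56 with Coq10a), Fh1 (188 with Kmo) and Idh3b (12 with Nop56). Acsbg1 and Srpk3 were at 2.02 and 1.05 CPM in fl/fl, and Ssr4 was 66.5 CPM in fl/fl and 65.5 CPM in iADKO.

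2-Oxoglutarate dehydrogenase is a complex of E1 (Ogdh), E2 (Dlst) and E3 (Dld), and E3 is shared with the pyruvate and branched-chain complexes. Ogdh measured 572, 492, 511, 501, 347, 537 and 489 CPM in fl/fl replicates 1 to 7 and 302, 283, 291, 300.2, 297 and 374 CPM in iADKO replicates 1 to 6. Of the iADKO mice, 5 were within 283 and 302 CPM, the sixth stood above them, and fl/fl replicate 5 fell between. Ogdh fell by 0.68 (SE 0.103), from 493 ± 70.5 CPM (SD, n = 7) to 308 ± 33.0 CPM (SD, n = 6), with an adjusted p of 5.85e-04, the lowest of the 9. Dlst fell by 0.49 (SE 0.085, adjusted p = 0.00126) and Dld by 0.55 (SE 0.118, adjusted p = 0.0038).

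Succinyl-CoA ligase, which makes ATP or GTP directly, pairs the alpha subunit Suclg1 with either the ATP-forming beta subunit Sucla2 or the GTP-forming Suclg2. Suclg1 was the least abundant of the 9 in CPM, at 76.2, 68.4, 71.9, 70.4, 47.4, 70.0 and 74.2 CPM in fl/fl and 45.0, 44.8, 50.3, 49.1, 50.3 and 60.7 CPM in iADKO. It had the smallest change, a fall by 0.45 (SE 0.101, adjusted p = 0.00504). Sucla2 measured 143, 114, 133, 120.1, 79.3, 127 and 140.1 CPM in fl/fl and 74.2, 64.3, 75.3, 70.6, 85.0 and 93.4 CPM in iADKO, and fell by 0.66 (SE 0.125, adjusted p = 0.00193). In both genes the fifth fl/fl mouse lay within the iADKO range, with 2 iADKO mice below it for Suclg1 and 4 for Sucla2. Suclg2 fell by 0.52 (SE 0.095, edgeR adjusted p = 0.00159), from 95.7 ± 6.24 CPM (SD, n = 7) to 66.5 ± 12.4 CPM (SD, n = 6). Here too fl/fl replicate 5 was the lowest control, at 85.6 CPM. Below it were 5 iADKO mice, and iADKO replicate 6 was above it, at 90.8 CPM.

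The last steps regenerate oxaloacetate through succinate dehydrogenase, which is also complex II of the respiratory chain, fumarate hydratase and malate dehydrogenase. Fh1 measured 120.1, 107, 109, 106, 74.7, 103 and 119 CPM in fl/fl and 70.2, 67.0, 72.1, 74.5, 76.1 and 89.8 CPM in iADKO, and fell by 0.49 (SE 0.099, adjusted p = 0.00273). Mdh2 measured 346, 309.9, 304, 293, 190.4, 290.4 and 291 CPM in fl/fl and 184, 190.2, 195, 208, 204 and 239 CPM in iADKO, and fell by 0.51 (SE 0.111, adjusted p = 0.00422). As for the other genes, 6 fl/fl mice were above every iADKO mouse and fl/fl replicate 5 was not. Of the succinate dehydrogenase subunits, which were not among the chosen genes, Sdha (flavoprotein) fell by 0.72 and Sdhb (iron-sulfur protein) by 0.60, while the membrane anchors Sdhc and Sdhd fell by 0.42 and 0.37. All 7 other enzyme subunits of the cycle described here were lower at an edgeR adjusted p under 0.05 (highest 0.00569, for Sdhd). Their median log2 fold change was -0.52, and 16.3% of all genes tested were lower. Fewer of the 7 were called in fits given after the marker genes. The count was 4 with the animal-number series as a block and 1 with the macrophage markers as a covariate. It was 0 with iADKO replicate 1 in a series of its own.

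**Figure D2:**
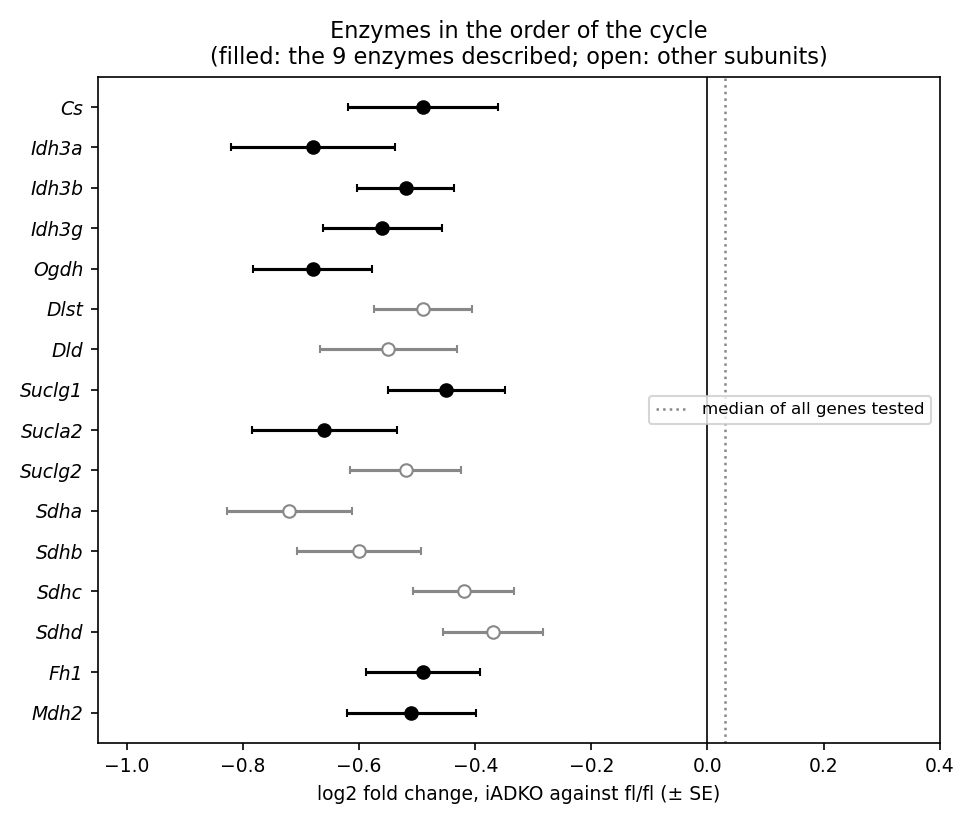
Log2 fold change of iADKO against fl/fl with its SE (horizontal axis) for 16 enzyme subunits in the order of the cycle from top to bottom, with the 9 chosen genes filled and the 7 others open. All 16 lie left of 0, from -0.72 for Sdha to -0.37 for Sdhd, and the dotted line marks the median of all genes tested, 0.03.

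The 2 genotypes overlapped for all 9 genes when all 13 mice were counted, and of all genes tested 3.92% had every iADKO mouse below every fl/fl mouse. For each of the 9 genes at least 1 iADKO mouse lay above fl/fl replicate 5, and for Idh3b and Ogdh that was iADKO replicate 6 alone. On the log2 scale fl/fl replicate 5 was between 0.44 and 0.91 below the mean of the other 6 fl/fl mice. Its distance from the iADKO mean ran from -0.22 to 0.18. Without it, 9 of 9 genes had every iADKO mouse below every fl/fl mouse, as did 10.1% of all genes tested. With all 13 mice, exact two-sided permutation tests of 7 against 6 gave p from 0.00175 (Idh3b and Ogdh) to 0.0111 (Cs). iADKO replicate 6 was the highest of its genotype for all 9 genes, 0.23 to 0.40 above the mean of the other 5. The SD of log2 CPM in fl/fl was 0.18 to 0.35 with replicate 5 and 0.06 to 0.13 without it. The animal numbers of both mice lie close together, as do those of other mice of both genotypes. With both left out, a choice made after the values were seen, all 9 were still lower, against 23.3% of all genes tested. The median log2 fold change of the 9 was then -0.66.

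Per kilobase of canonical transcript, the order of the levels in fl/fl was Cs at 244 ± 45.6 CPM per kb (SD, n = 7), Mdh2 at 193 ± 31.8, Idh3b at 117 ± 13.2, Idh3g at 98.3 ± 14.8, Ogdh at 72.4 ± 10.4, Idh3a at 65.7 ± 12.9, Suclg1 at 45.0 ± 6.32, Sucla2 at 41.0 ± 7.28 and Fh1 at 19.9 ± 2.85. The ranges of the mean ± SD overlapped between the neighbours Cs and Mdh2, Idh3b and Idh3g, Ogdh and Idh3a, and Suclg1 and Sucla2. The order was the same in iADKO. With the length of all annotated exons in place of the canonical transcript, Ogdh moved ahead of Idh3b and Sucla2 ahead of Suclg1, so these places depend on the length used.

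To ask whether the 9 genes changed by the same amount, the log2 ratio of each pair was taken within each mouse, which removes the scaling between libraries. Of 36 pairs, 8 differed between genotypes at an adjusted p under 0.05 by exact two-sided permutation tests adjusted over the 36, and 15 at an unadjusted p under 0.05. Ogdh was in 5 of the 8. Its ratio to Suclg1 was 2.85 ± 0.07 (SD, n = 7) among fl/fl mice, against 2.62 ± 0.08 (SD, n = 6) among iADKO mice on the log2 scale, a difference of -0.23 (exact permutation, adjusted p = 0.0252). Its ratios to Fh1 and Mdh2 were lower by 0.19 and 0.18, and those of Cs and Idh3b to Ogdh were higher by 0.20 and 0.15. Within succinyl-CoA ligase, the ratio of Suclg1 to Sucla2 was higher in iADKO by 0.21 (exact permutation, adjusted p = 0.0252). The remaining pairs past the threshold were Idh3a to Suclg1 (-0.22) and Sucla2 to Fh1 (-0.17). The unequal change was small beside the shared one, since no pair differed by more than 0.23 and 17 of 36 by less than 0.1. Among the subunits of isocitrate dehydrogenase, Idh3a to Idh3b differed by -0.15 (exact permutation, adjusted p = 0.262), Idh3a to Idh3g by -0.11 (0.28) and Idh3b to Idh3g by 0.03 (0.686). Calls of single pairs were lost in some fits with a mouse left out, where the smallest p the test allows is also larger. With any of fl/fl replicates 1, 3, 4 or 6 or iADKO replicate 4 left out, 0 of 36 pairs passed the threshold (smallest unadjusted p 0.00216 to 0.00433). The smallest adjusted p by exact permutation was then 0.0519 to 0.0606. Over all fits with a mouse left out, the difference for Ogdh to Suclg1 stayed between -0.25 and -0.21.

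**Figure D3:**
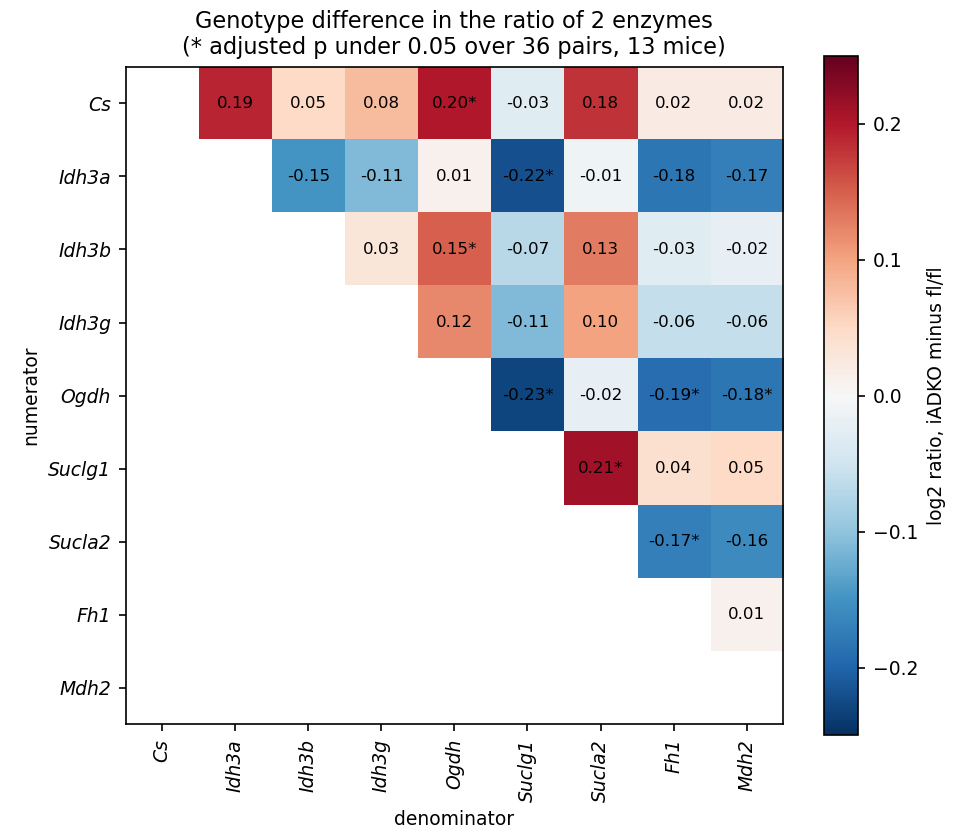
Difference between genotypes (iADKO minus fl/fl) in the log2 ratio of the gene in the row to the gene in the column, for the 36 pairs over 13 mice, with an asterisk where the adjusted p is under 0.05. The column and row of Ogdh hold 5 of the 8 asterisks, and no value exceeds 0.23 in size.

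The same comparison was made between one of the 9 enzymes and a relative or partner of it, for 5 pairs with p adjusted over the 5. Idh2, the NADP-linked mitochondrial isocitrate dehydrogenase, was 89.8 ± 8.81 CPM (SD, n = 7) among fl/fl mice, against 83.1 ± 4.43 CPM (SD, n = 6) among iADKO mice and was not called (log2 fold change -0.11, edgeR adjusted p = 0.203). The ratio of Idh3a to Idh2 was lower in iADKO by 0.56 on the log2 scale (exact permutation, adjusted p = 0.0146), and it passed the threshold in 13 of 13 fits with a mouse left out, with differences of -0.66 to -0.52. The ratio of Ogdh to Dlst, E1 to E2 of the same complex, was lower by 0.19 (exact permutation, adjusted p = 0.00874), and also passed in 13 of 13. The ratios of Mdh2 to cytosolic Mdh1 (0.17, exact permutation, adjusted p = 0.14), Sucla2 to Suclg2 (-0.11, 0.321) and Idh3a to cytosolic Idh1 (-0.13, 0.321) did not pass. In whole tissue, the RNA of Idh3a and Idh2 thus changed unequally, and the part of cell composition in this was not tested. None of the 5 ratios passed with the replicate number as a block, a fit given in the last section.

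Genes that feed, drain or serve the cycle were counted in the same fit, where 16.3% of all genes were lower and 14.1% higher. In the pyruvate dehydrogenase complex and its regulators, 8 of 11 were lower and 1 was higher (median log2 fold change -0.66). The kinase Pdk1 fell by 1.04 and the E1 subunits Pdhb and Pdha1 by 0.91 and 0.88, whereas the kinase Pdk3 rose by 0.39. Of 12 genes that refill or drain the cycle, 8 were lower and 1 was higher (median -0.76). Pcx, the pyruvate carboxylase that makes oxaloacetate, fell by 1.39, from 2352 ± 453 CPM (SD, n = 7) to 899 ± 243 CPM (SD, n = 6), Gpt2 (mitochondrial alanine transaminase) by 1.21 and Pck1 (the cytosolic carboxykinase of glyceroneogenesis) by 1.19. Got1, the cytosolic aspartate transaminase, was the 1 gene that rose, by 0.55. Of 8 listed carriers of cycle metabolites, 7 were tested, 5 were lower and 0 were higher (median -0.61). The citrate carrier Slc25a1 fell by 1.44, the pyruvate carrier subunit Mpc1 by 1.07 and the dicarboxylate carrier Slc25a10 by 0.93. Of the cytosolic or NADP-linked relatives of cycle enzymes, 5 of 8 were lower and 0 higher (median -0.55), led by the NADPH-forming malic enzyme Me1, which fell by 1.94, the citrate-splitting enzyme Acly, by 1.64, and Mdh1, by 0.65. The mitochondrial malic enzymes Me2 and Me3 were not called, at -0.05 and -0.19. The medians of the complex, the refilling genes and the carriers were below that of the 9 enzymes, a description that was not tested.

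Assembly and lipoylation factors of the cycle's complexes, listed together with the Ogdh relative Ogdhl, were lower in 5 of 9 and higher in 0 (median log2 fold change -0.28). Lipt1 and Lias, which attach and make the lipoyl group that Dlst needs, fell by 0.65 and 0.48, and Mrps36, which holds E3 in the 2-oxoglutarate dehydrogenase complex, by 0.40. For comparison within mitochondria, 15 of 19 genes of fatty acid beta-oxidation were lower and 1 higher (median -0.57), with Decr1, Echs1 and Cpt2 falling by 0.78, 0.75 and 0.73 and Cpt1a, the entry enzyme, rising by 0.36, and 7 of 7 nuclear-encoded core subunits of complex I were lower (median -0.49), with Ndufs1, Ndufv1 and Ndufs3 falling by 0.61, 0.57 and 0.50. Of 12 listed transcription factors and coactivators of mitochondrial biogenesis, 10 were tested, of which 2 were lower and 2 higher (median -0.08), shares close to the 16.3% and 14.1% of all genes, and nothing is read from them. Ppara, a receptor that drives fat oxidation genes, fell by 0.81 and the estrogen-related receptor Esrra by 0.23, and Pprc1 and Gabpb1, a coactivator and the partner of GABPA, rose by 0.40 and 0.37. The coactivator Ppargc1a was 7.40 ± 1.32 CPM (SD, n = 7) and 5.44 ± 1.96 CPM (SD, n = 6), with a log2 fold change of -0.44 (edgeR adjusted p = 0.0976), and Gabpa, Nrf1 and Tfam were at 0.03, 0.15 and -0.16, none past the threshold. With the animal-number series as a block, Got1 (adjusted p = 0.0521), Cpt1a (0.145), Ppara (0.0523) and Esrra (0.101) were no longer called by edgeR.

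Among genes outside the cycle, those whose profile over the 13 mice was nearest to the mean profile of the 9 were sought among 13818 genes whose log2 CPM averaged 1 or more. The measure was the mean absolute difference between centred log2 CPM values. The nearest were the complex I subunits Ndufs3 (0.0332) and Ndufv1 (0.0376), then Mcat (0.0432), the malonyl transferase of mitochondrial fatty acid synthesis, Rmdn3 (0.0441), a tether between endoplasmic reticulum and mitochondria, and the complex I subunit Ndufs1 (0.0466).

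The tissue label was checked against marker genes, which also moved with genotype. All 10 adipocyte markers were lower in iADKO (median log2 fold change -0.84), and none was at 0 in either genotype. Their summed level was 11827 to 21992 CPM in fl/fl and 7942 to 13656 CPM in iADKO. Fabp4, a fatty acid binding protein, fell by 0.61 and the triglyceride lipase Pnpla2 by 1.00. Of 9 macrophage markers, 6 were higher and 0 lower (median 0.56), with a summed level of 1373 to 2570 CPM in fl/fl and 1785 to 3070 CPM in iADKO. Csf1r rose by 0.49 and Mrc1 by 0.39. Of the T cell markers 3 of 6 and of the B cell markers 3 of 5 were higher, with summed levels of 17.1 to 29.3 and 31.9 to 37.0 CPM for T cells and 27.4 to 68.1 and 53.5 to 102 CPM for B cells. Of 5 brown adipocyte markers, 4 were tested and 2 were lower, with summed levels of 15.3 to 97.5 CPM in fl/fl and 7.67 to 37.2 CPM in iADKO. Markers of progenitors (0 of 6 past the threshold), mesothelium (0 of 5) and mural cells (0 of 5) were not called. Of the endothelial markers 2 of 5 and of the skeletal muscle markers 1 of 6 were lower, and 2 of 5 epithelial markers were higher. Of all genes tested, 16.3% were lower and 14.1% higher. The skeletal muscle count is close to that share, and nothing is read from it.

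The levels of the markers in single mice are given beside those of the enzymes. As the mean of log2 CPM centred on the 13 mice, the 9 enzymes were 0.25 ± 0.25 (SD, n = 7) among fl/fl mice, against -0.30 ± 0.14 (SD, n = 6) among iADKO mice, and the adipocyte markers 0.40 ± 0.30 and -0.47 ± 0.22. In fl/fl replicate 5, the enzymes were at -0.31, the adipocyte markers at -0.20 and the macrophage markers at 0.42. The same mouse had the highest summed skeletal muscle markers (391 CPM, against a median of 98.8 CPM in fl/fl), the highest summed progenitor markers (4727 CPM) and the lowest summed mural markers (590.0 CPM) of all mice, and the part of these in its values was not tested. In iADKO replicate 6, they were at -0.03, -0.06 and -0.17, and its summed epithelial markers were 271 CPM, the highest of all mice. Relative to the adipocyte markers, the enzymes were not lower in iADKO. The difference of the 2 means was -0.15 ± 0.10 (SD, n = 7) among fl/fl mice, against 0.17 ± 0.14 (SD, n = 6) among iADKO mice, so the adipocyte markers were the further apart between genotypes. The part of cell composition in the fall of the 9 enzymes was not tested, since the markers and the genotype cannot be told apart.

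**Figure D4:**
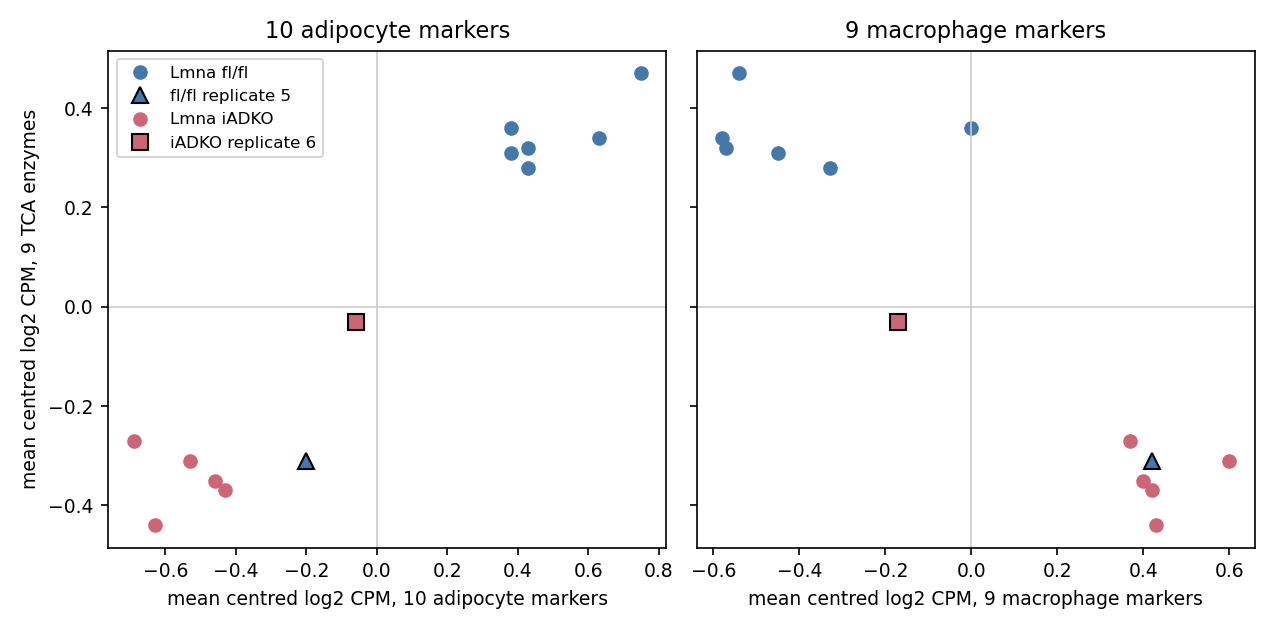
Mean centred log2 CPM of the 9 TCA enzymes (vertical axes) against that of 10 adipocyte markers (left) and 9 macrophage markers (right), with 1 point per mouse. Apart from fl/fl replicate 5 (triangle, -0.31) and iADKO replicate 6 (square, -0.03), the fl/fl mice lie between 0.28 and 0.47 and the iADKO mice between -0.44 and -0.27.

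Fits that held such values constant gave other counts. With the macrophage markers as a covariate, 1 of 9 (Ogdh, log2 fold change -0.33) was lower past the threshold, against 1.72% of all genes, and the median of the 9 was -0.22. With the adipocyte markers as a covariate, 0 of 9 were lower, against 0.0119% of all genes, the median was 0.06, and the 1 gene of the 9 with an unadjusted p under 0.05 was Cs, in the opposite direction (0.29, SE 0.134, edgeR adjusted p = 0.355). No other tool was run with these covariates. The labels give each mouse an animal number and do not say what the numbers mean. The numbers were grouped here into 4 series by how close they are, and 2 of the 4 series hold 1 genotype only. With the series as a block, 4 of 9 (Idh3b, Idh3g, Ogdh and Sucla2) were lower, against 7.17% of all genes, and the median was -0.47. The number of iADKO replicate 1 lies furthest from the rest of its series. With that mouse in a series of its own, a choice made after the values were seen, 0 of 9 were lower, against 0.0836% of all genes, with values from -0.61 to -0.30, a median of -0.41 and adjusted p from 0.0920 to 0.384. In that edgeR fit, 6 of the 9 had an unadjusted p under 0.05, and no other tool was run. In the series with 2 mice of each genotype, to which fl/fl replicate 5 and iADKO replicate 6 belong, the difference of mean log2 CPM was -0.32 to 0.04 for the 9 genes, with a median of -0.18. In the other series with both genotypes (3 fl/fl and 2 iADKO mice), it was -0.93 to -0.68, with a median of -0.74. Without iADKO replicate 1, which leaves 3 fl/fl mice and 1 iADKO mouse, it was -1.01 to -0.69, with a median of -0.75.

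**Figure D5:**
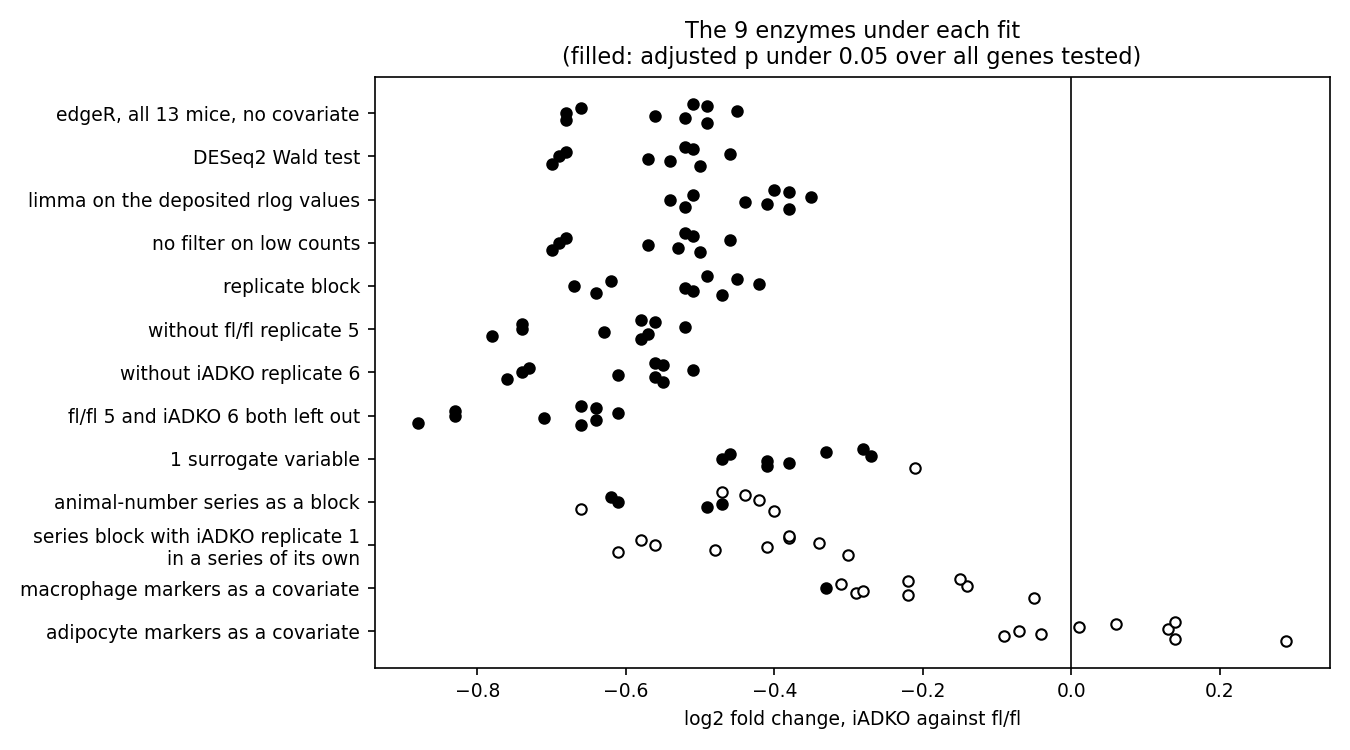
Log2 fold change of iADKO against fl/fl (horizontal axis) for each of the 9 enzymes under 13 fits, filled where the adjusted p over all genes tested is under 0.05. The values lie between -0.88 and -0.21 in the fits without a marker covariate, where 0 of 9 are filled with iADKO replicate 1 in a series of its own, move toward 0 with the macrophage markers and lie on both sides of 0 with the adipocyte markers.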

How the data were processed

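Bulk RNA-Seq of whole pmWAT was analyzed for 13 mice, 1 library each. For every library the authors deposited whole-number counts of reads on each gene, not normalized, and log2 values made from the same counts by DESeq2's regularized log (rlog). Rlog values recomputed from the counts differed from the deposited ones by at most 4.66e-08. Per the submitters' notes and the study's methods, RNA was taken from powdered tissue, mRNA libraries that keep strand were read from both ends, reads were checked with FastQC 0.12.1 and aligned with STAR 2.7.11a to mm39. The counting tool, its strand setting and the annotation are not given in the sources used here. Within a genotype, chi-square divided by its degrees of freedom was 8.90 to 98.7 for pairs of mice, so no library was a copy of another of its genotype. Pairs across genotypes were not compared in this way. All libraries carry the same batch date. A listed gene is not reported here.

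Genes were kept by filterByExpr (16753 of 33618), scaled by TMM and compared with the robust quasi-likelihood test of edgeR 4.0.16 in R 4.3.3, with Benjamini-Hochberg adjustment over all genes tested and a threshold of 0.05. The SE is the absolute log2 fold change divided by the square root of F. Log2 CPM use a prior count of 2. The test was also run on data simulated from the means and spread of these libraries. Symbols come from GENCODE vM39 (33184 identifiers found), on GRCm39, the build of the files. Near copies were sought with minimap2 2.31. Promoters are the 250 bases before the canonical start site, and the one shown for Idh3a ends before the first annotated exon base. Alternatives were DESeq2's size factors, the Wald test of DESeq2 1.42.0, limma 3.58.1 on the rlog values, other filters, scaling without mitochondrially encoded genes, a block for the replicate number or for the animal series (animal numbers of the labels, grouped here by closeness), marker covariates, 1 surrogate variable from sva 3.50.0, a prior count of 0.5, and each mouse left out.

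The 9 genes, the lists and the tests were chosen with earlier results of these data known, so list counts are descriptions. Named are the 9, 7 other subunits of the cycle, Lmna, up to 3 genes per pathway list with the largest changes past the threshold, up to 2 of the most abundant per marker list, and the 5 of nearest profile. Pdk3, Got1, Cpt1a, Idh2, Idh1, Me2, Me3, Esrra, Ppargc1a, Gabpa, Nrf1, Tfam, Csl, the promoter motifs shown and the antisense partners were named after their values were seen.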

Additional observations from a re-analysis of the deposited data

Results flagged for a closer look

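Single mice stood apart from their genotype by Dixon's test in 17 of the 32 groups examined, which were the 16 enzyme subunits of the cycle in each genotype. Chance flags about 1 in 20 such groups, but the genes are measured in the same mice and are not separate trials. fl/fl replicate 5 was the low mouse in 12 cases, 8 of them among the 9 described genes. Its values were 437 CPM for Cs, 96.7 CPM for Idh3a, 145 CPM for Idh3b, 107 CPM for Idh3g, 347 CPM for Ogdh, 47.4 CPM for Suclg1, 74.7 CPM for Fh1 and 190.4 CPM for Mdh2. Among the other subunits it was at 213 CPM for Dlst, 169 CPM for Dld, 477 CPM for Sdha and 101 CPM for Sdhd.

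iADKO replicate 6 was the high mouse in the other 5 cases, at 374 CPM for Ogdh, 60.7 CPM for Suclg1, 90.8 CPM for Suclg2, 124 CPM for Sdhb and 152 CPM for Sdhc. Sucla2 was the 1 gene of the 9 with no such mouse in either genotype.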

How the results depend on the processing

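Each of the 9 enzymes passed the threshold and was lower in iADKO with DESeq2's size factors, the DESeq2 Wald test, limma on the rlog values, every filter, scaling without mitochondrially encoded genes and each mouse left out. In these fits, the share of all genes tested that were lower ran from 7.09% (no filter on low counts) to 19.7% (without fl/fl replicate 5). The median log2 fold change was -0.58 to -0.49 with a mouse left out and -0.41 with limma on the rlog values. Over the alternatives, 202 of 234 single-gene values kept their direction and call, 26 kept the direction only and 6 reversed. The reversals were under the adipocyte covariate, at 0.29 for Cs, 0.14 for Idh3a, 0.13 for Suclg1, 0.01 for Sucla2, 0.06 for Fh1 and 0.14 for Mdh2, with the median at 0.06 and 0 of 9 lower. The macrophage covariate left 1 of 9 (median -0.22) and the animal series block 4 of 9. The block with iADKO replicate 1 in a series of its own (chosen after seeing the data) left 0 of 9 (median -0.41). With 1 surrogate variable, 8 of 9 were left, without Cs (-0.21, edgeR adjusted p = 0.138), against 7.91% of all genes tested. All genes past the threshold numbered 5104, and 6 with the adipocyte covariate, 501 with the macrophage covariate, 1986 with the series block, 54 with iADKO replicate 1 apart in that block and 2400 with the surrogate variable. Genes past the threshold in the pathway lists together numbered 44 with the series block, 0 with iADKO replicate 1 apart in it and 13 with the macrophage covariate, against 67. Differences within the animal series, chosen after seeing the data, had medians of -0.18 and -0.74, and Cs reversed to 0.04 in the former. The causes were not tested. Of the 36 ratios, between 0 and 11 passed the threshold with a mouse left out, with 4, 3 and 5 without iADKO replicates 1, 2 and 6, and 11 without fl/fl replicate 5.

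Replicate numbers are shared between the genotypes in the labels but nothing says that they pair mice. Deviations of same-numbered mice correlated at -0.026 to 0.217 over genes (mean 0.107), above 0.1 in 3 of 6 pairs. Those of differently numbered mice correlated at -0.416 to 0.283. These values do not settle whether mice are paired, and the main fit used no pairing because none is stated. With the replicate block and fl/fl replicate 7 left out, 9 of 9 enzymes were lower (median -0.51), against 14.7% of all genes tested. In that setting 0 of the 36 ratios and 0 of the 5 ratios to relatives passed, where the smallest p that 6 pairs allow is 0.0313.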
